A study of Homo sapiens with 6 samples.

Results

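The AP-1 and immediate early genes described here are 10 genes, FOS, FOSB, FOSL1, FOSL2, JUN, JUNB, JUND, EGR1, IER2 and IER3. They were taken by gene symbol from a table of 12982 genes, and all 10 were found there. SW480, an established human colorectal adenocarcinoma cell line of wild-type genotype, was treated for 24 h with DMSO, the solvent control, or with MPM-1, which the labels call WT4. MPM-1 is a fluorescent small molecule built to enter mitochondria, and the study sequenced RNA to look for the pathways that respond to it. Each treatment had 3 libraries, all from this 1 line. The dose in this experiment is not given in the sources used here, and nothing says that the libraries came from separate cultures, so the p-values measure only the spread between these samples, which may be technical.

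Immediate early genes are transcribed within minutes of a growth factor, stress or other signal, without new protein synthesis, and most of their transcripts are short-lived. FOS and JUN proteins pair through a leucine zipper to form AP-1, a transcription factor that binds the letters TGACTCA or close variants of them. FOS proteins need a JUN partner to bind DNA, whereas JUN proteins also pair with each other, and in colorectal tumour cells AP-1 acts downstream of the MAP kinases. EGR1 is a zinc finger transcription factor induced through the same kinases, and IER2 and IER3 are small immediate early proteins that are not part of AP-1.

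Promoter sequence is shown first, since the letters near the starts of immediate early genes are where signals to them are known to converge. Whether these letters bear on how the 10 genes responded was not tested. In the RefSeq promoters of GRCh38.p14, 8 of the 10 genes had an entry of 300 bases, 250 before and 50 after the start, and FOSL1 and IER3 had none. Positions count from base 1 at the start, with no base 0. The starts are those of RefSeq and can differ from those of the GENCODE annotation, which gave the gene positions below. The stretches shown for FOSL2 and JUN lie inside their GENCODE gene intervals. Capitals mark the matched letters, on either strand, so that TGACGT also appears as ACGTCA. The core TGACGT of the cAMP response element (CRE) was found in 5 of the 8 promoters. In FOS it lay at -64 to -59 (chr14:75278752-75278781, plus strand), in FOSB at -60 to -55 (chr19:45467924-45467953, plus strand) and in FOSL2 at -66 to -61 (chr2:28392780-28392809, plus strand). JUND held the whole CRE, TGACGTCA, which contains the core on both strands, at -200 to -193 (chr19:18281804-18281833, minus strand) and another core at -87 to -82 (chr19:18281692-18281721, minus strand). JUN held TGACATCA at -67 to -60 (chr1:58784096-58784125, minus strand), a variant bound by JUN and ATF2 dimers. FOSL2 was the only one of the 8 with the AP-1 letters TGACTCA, just after its start at 5 to 11 (chr2:28392851-28392880, plus strand).
FOS: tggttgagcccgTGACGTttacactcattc
FOSB: gcaaggggcgggTGACGTaagcaggggggc
FOSL2 CRE core: ggagtctggggtTGACGTgagtgaatccac
FOSL2 AP-1 letters: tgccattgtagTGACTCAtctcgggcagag
JUN: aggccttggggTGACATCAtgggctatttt
JUND whole CRE: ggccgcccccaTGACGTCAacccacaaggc
JUND CRE core: tgcaaatgagcgACGTCAcccgcacccaat

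Several kinds of match stood together in the EGR1 promoter. A stretch of 100 bases at chr5:138465329-138465428 (plus strand, -150 to -51) held CRE cores at -136 to -131 and -67 to -62, and between them CArG boxes, the letters bound by serum response factor, at -105 to -96 and -83 to -74. An EGR site, GCGNGGGCG, the letters bound by EGR1 itself, lay further upstream at -198 to -190 (chr5:138465271-138465300, plus strand).
EGR1 stretch: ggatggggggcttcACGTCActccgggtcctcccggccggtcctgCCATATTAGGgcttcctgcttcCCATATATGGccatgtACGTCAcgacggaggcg
EGR1 EGR site: tgggatgcggGCGCGGGCGcgggccctagg
Among 35116 RefSeq promoters of the same length, searched on both strands, TGACGT was found in 7.98%, TGACGTCA in 1.85%, TGACATCA in 2.61%, TGACTCA in 4.95%, a CArG box in 1.29% and GCGNGGGCG in 9.43%. JUNB and IER2 held none of these letters in the window. A match describes the sequence and is not a measured binding site.

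The libraries held 32095456 to 40269820 counts under DMSO and 31733667 to 35403841 under MPM-1. Counts from the 10 genes made up 0.118% to 0.131% of the DMSO libraries and 0.203% to 0.222% of the MPM-1 libraries. Replicates differed well beyond counting noise, so no library stood in for another. Of 9 markers of colorectal epithelium, 8 were in the table, with a summed level of 4768 to 5492 FPKM (fragments scaled by transcript length and library size) under DMSO and 6710 to 7174 under MPM-1. PTPRC, PECAM1, VWF, CDH5 and DCN, which define leukocytes, endothelium and fibroblasts, were not among the genes analysed here. Of the leukocyte list 1 of 4 markers (CD68) was in the table, at 31.5 to 45.9 FPKM under DMSO and 68.4 to 73.6 under MPM-1, and of the fibroblast list 1 of 4 (COL1A1), at most 0.510 FPKM. The share of counts from genes of the mitochondrial genome was 8.28% to 9.11% under DMSO and 1.95% to 2.35% under MPM-1, so it moved with treatment, and its part in the results was not tested.

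Transcripts of FOSL1, FOSL2, JUN, JUNB and IER3 were higher after MPM-1, by 2.04 to 3.53 times, whereas FOS, JUND, EGR1 and IER2 did not pass the test. FOSB lay between, past the test but below the fold threshold. The test was the quasi-likelihood test of edgeR, with p-values adjusted by Benjamini-Hochberg over all 12982 genes, and a differentially expressed gene (DEG) had an adjusted p under 0.01 and a log2 fold change of 1 or more, up or down. By this rule 5 of the 10 genes rose, beside 5.58% of all genes, and 0 fell, beside 8.75% of all genes (DESeq2 likewise called 0 lower). An unadjusted p under 0.05 was found for 6 of the 10, all higher, beside 61.3% of all genes in either direction. At an adjusted p under 0.05 with no fold threshold, 6 of the 10 were higher and 0 lower, beside 27.7% and 28.8% of all genes. The libraries of the treatments did not overlap for 6 of the 10 genes, close to the 64.3% of all genes without overlap in either direction. All 6 were higher, while of the 12982 genes 4024 lay apart as higher and 4317 as lower. The median log2 fold change was 0.90 over the 10 genes and -0.03 over all genes. With library size alone as the scaling, the median of all genes moved to -0.18 and the share of DEGs that were higher from 39.0% to 26.8%. In bulk libraries, a change in the number of cells that transcribe a gene and a change in transcript per cell cannot be told apart.

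**Figure D1:**
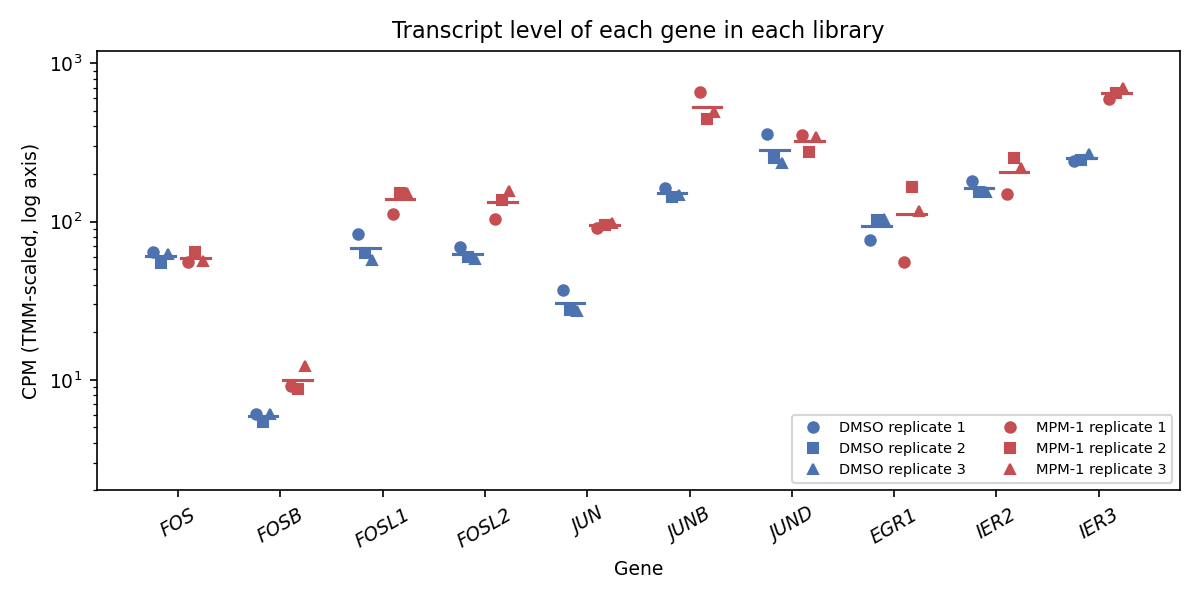
Level of each gene in each library, in CPM (counts divided by library size, adjusted with TMM factors for library composition) on a log axis, with DMSO in blue, MPM-1 in red, a symbol for each replicate and a bar at the mean. The treatments were apart for FOSB, FOSL1, FOSL2, JUN, JUNB and IER3, and overlapped for FOS, JUND, EGR1 and IER2.

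Among the JUN genes, JUN and JUNB rose and JUND did not pass the test. JUN, the founding AP-1 subunit (ENSG00000177606, 1 exon, chr1:58780788-58784327, minus strand, GRCh38), stood at 37.1, 27.5 and 27.2 CPM in the DMSO libraries and at 91.2, 95 and 97.7 CPM in the MPM-1 libraries. Every MPM-1 library was above every DMSO library, and the MPM-1 libraries lay close together, at a mean of 94.6 ± 3.27 CPM (SD, n = 3). Its log2 fold change was 1.63 (SE 0.12, 95% interval 1.36 to 1.90), a 3.09-fold rise with an edgeR adjusted p of 6.39e-06.

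JUNB (ENSG00000171223, 1 exon, chr19:12791496-12793315, plus strand), which pairs with FOS proteins but is a weaker activator than JUN on single AP-1 sites, had the largest fold change of the 10 genes with all libraries, but without MPM-1 replicate 1 its log2 fold change was 1.66 and that of JUN 1.67. It measured 162, 143 and 147 CPM under DMSO and 656, 445 and 494 CPM under MPM-1. All MPM-1 libraries were above the DMSO libraries, with replicate 1 well above the other two. The log2 fold change was 1.82 (SE 0.14, 95% interval 1.52 to 2.13), a 3.53-fold rise with an edgeR adjusted p of 6.45e-06. JUNB overlaps HOOK2 on the other strand, and whether counting used strand is not given in the sources used here, so reads of the pair may not be separable. HOOK2 had far fewer reads, with 19.3 CPM under DMSO and 25.4 CPM under MPM-1.

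JUND (ENSG00000130522, chr19:18279760-18281622, minus strand), the subunit that is present in resting cells and varies least with growth signals, was at 358, 252 and 234 CPM under DMSO and at 353, 276 and 344 CPM under MPM-1. The treatments overlapped, since DMSO replicate 1 was the highest of all 6 libraries. Its log2 fold change was 0.21 (SE 0.16, 95% interval -0.15 to 0.56, edgeR adjusted p = 0.292). Without DMSO replicate 1 it was 0.42, with an edgeR adjusted p of 0.0154, against 0.09 to 0.33 without each of the other libraries in turn.

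FOSL1 and FOSL2, the FOS genes whose proteins lack the strong activation domain of FOS, both rose, by about the same factor. FOSL1 (also FRA1, ENSG00000175592, chr11:65892049-65900573, minus strand), an AP-1 subunit linked to invasion and motility of carcinoma cells, stood at 83.4, 63.3 and 57.0 CPM under DMSO and at 112, 151 and 152 CPM under MPM-1. The groups were apart, with DMSO replicate 1 the highest control and MPM-1 replicate 1 the lowest treated library. The log2 fold change was 1.03 (SE 0.16, 95% interval 0.68 to 1.38), a 2.04-fold rise with an edgeR adjusted p of 0.000445.

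FOSL2 (also FRA2, ENSG00000075426, chr2:28392448-28417312, plus strand) was at 68.7, 59.8 and 58.0 CPM under DMSO and at 104, 137 and 155 CPM under MPM-1. Again all MPM-1 libraries were higher, and replicate 1 was the lowest of them. Its log2 fold change was 1.09 (SE 0.14, 95% interval 0.78 to 1.40), a 2.13-fold rise with an edgeR adjusted p of 0.000154. FOSL2 overlaps AC104695.3 on the same strand and FLJ31356 on the other, and neither was among the genes analysed here. FOSL1 and FOSL2 lay just above the fold threshold, and both fell below it under some settings, with adjusted p at most 0.00348 and 0.00145. With library size alone their log2 fold changes were 0.89 and 0.94. Leaving out DMSO replicate 2, DMSO replicate 3, MPM-1 replicate 2 or MPM-1 replicate 3 gave FOSL1 0.98, 0.92, 0.99 and 0.97, and leaving out MPM-1 replicate 3 gave FOSL2 0.97.

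FOSB (ENSG00000125740, chr19:45467995-45475179, plus strand), which also gives a short form, deltaFosB, by splicing, was the least abundant of the set on the FPKM scale. Its counts were 200, 234 and 244 under DMSO and 280, 269 and 409 under MPM-1, or 6.06, 5.42 and 6.13 CPM against 9.19, 8.75 and 12.2 CPM. The groups did not overlap, and MPM-1 replicate 3 was the highest. The log2 fold change was 0.78 (SE 0.18, 95% interval 0.37 to 1.18, edgeR adjusted p = 0.00512), below the fold threshold, and the adjusted p stayed under 0.05 in each alternative run. FOSB overlaps ERCC1 on the other strand, and since strand use in counting is not given, reads of this pair too may not be separable. ERCC1 had far more reads than FOSB, with 140 CPM under DMSO and 152 CPM under MPM-1 (log2 fold change 0.12, edgeR adjusted p = 0.237). Whether ERCC1 reads entered the FOSB counts was not tested.

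FOS (ENSG00000170345, chr14:75278774-75282230, plus strand), the classic transient immediate early gene, was nearly level. It measured 64.6, 54.9 and 62.2 CPM under DMSO and 55.4, 64.5 and 56.4 CPM under MPM-1. The libraries of both treatments were interleaved. Its log2 fold change was -0.04 (SE 0.09, 95% interval -0.25 to 0.17, edgeR adjusted p = 0.721), so that a change of 1 on the log2 scale in either direction lay outside the interval. On the authors' FPKM, where the median of all genes stood at -0.15, limma gave FOS -0.27 (adjusted p = 0.0433), or -0.13 relative to that median. The sign of FOS also turned without DMSO replicate 1, MPM-1 replicate 1 or MPM-1 replicate 3, to 0.0064, 0.012 and 0.0015.

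**Figure D2:**
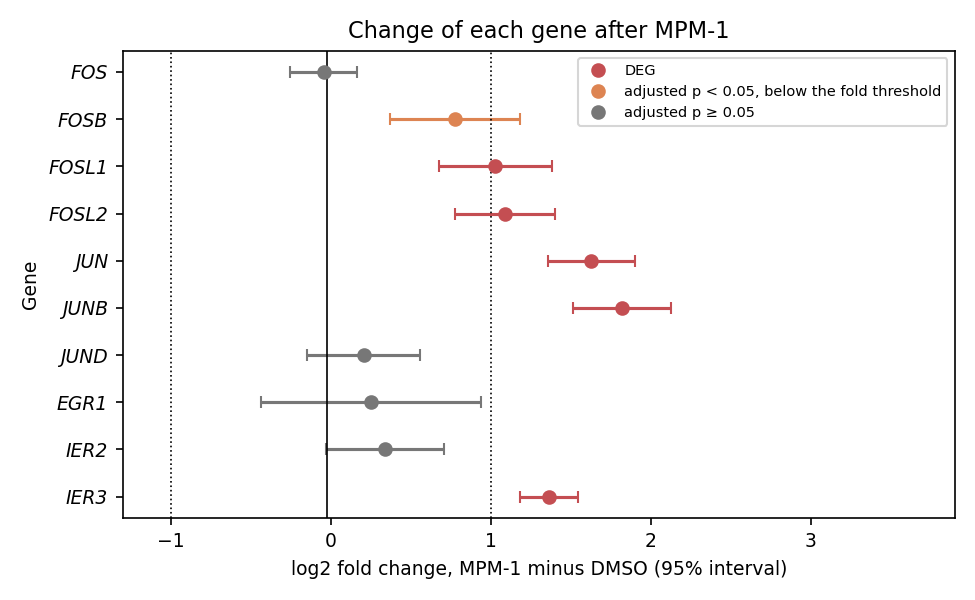
Log2 fold change of each gene (MPM-1 minus DMSO) with its 95% interval from edgeR, coloured by whether it was a DEG, past an adjusted p of 0.05 only, or neither. Dotted lines mark the fold threshold and the solid line the median of all genes, -0.03, and the intervals of FOSL1 and FOSL2 reach below the threshold while those of JUN, JUNB and IER3 lie above it. FOS and EGR1 have intervals on both sides of 0, and their sign differed between settings.

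IER3 (also IEX-1, ENSG00000137331, chr6:30743199-30744554, minus strand), a stress-induced regulator of apoptosis and of ERK signalling, had the smallest standard error of the set. It was at 243, 244 and 266 CPM under DMSO and at 597, 647 and 694 CPM under MPM-1. Every MPM-1 library stood far above every DMSO library, and the libraries of each treatment lay close together. Its log2 fold change was 1.36 (SE 0.08, 95% interval 1.18 to 1.55), a 2.57-fold rise with an edgeR adjusted p of 1.9e-06. An antisense gene, IER3-AS1, overlaps it and was not among the genes analysed here.

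IER2 (ENSG00000160888, chr19:13150415-13154908, plus strand) stood at 180, 154 and 153 CPM under DMSO and at 149, 251 and 216 CPM under MPM-1. MPM-1 replicate 1 was the lowest of all 6 libraries, while the other two MPM-1 libraries were above all DMSO libraries. The log2 fold change was 0.34 (SE 0.16, 95% interval -0.03 to 0.71, edgeR adjusted p = 0.103). Without MPM-1 replicate 1 it was 0.54 (edgeR adjusted p = 0.00205), and by DESeq2 on all libraries it was 0.36 (adjusted p = 0.0287). AC011446.2 overlaps IER2 on the other strand and was not among the genes analysed here.

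EGR1 (ENSG00000120738, chr5:138465490-138469315, plus strand) varied most between libraries of one treatment. It measured 76.3, 102 and 104 CPM under DMSO and 55.7, 164 and 117 CPM under MPM-1. MPM-1 replicate 1 was the lowest and MPM-1 replicate 2 the highest of the 6 libraries, so the DMSO range lay inside the MPM-1 range. Its log2 fold change was 0.25 (SE 0.31, 95% interval -0.43 to 0.94, edgeR adjusted p = 0.507). It became 0.59 (edgeR adjusted p = 0.0133) without MPM-1 replicate 1 and -0.10 (edgeR adjusted p = 0.763) without MPM-1 replicate 2, and on the FPKM scale it was -0.02.

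The spread within a treatment was uneven between the genes. On the log2 CPM scale, MPM-1 replicate 1 lay 0.88 below the treatment mean for EGR1 (a deviation of -0.88) and MPM-1 replicate 2 lay 0.68 above it, and for IER2 these deviations were -0.43 and 0.32. JUNB and JUND deviated the other way, being highest in MPM-1 replicate 1 at 0.32 and 0.13. In MPM-1 replicate 1, 8 of the 10 genes were below the mean of the other two MPM-1 libraries, as were 24 of 38 other immediate early genes and 49.5% of all genes. DMSO replicate 1 was above the mean of the other DMSO libraries for 8 of the 10 genes. It was below that mean for 2 of the 10, for 10 of the 38 other immediate early genes and for 49.1% of all genes. Its largest deviations among the 10 genes were those of JUND at 0.37, FOSL1 at 0.31 and JUN at 0.29, with EGR1 at -0.29. IER3 deviated by at most 0.11 in any library.

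**Figure D3:**
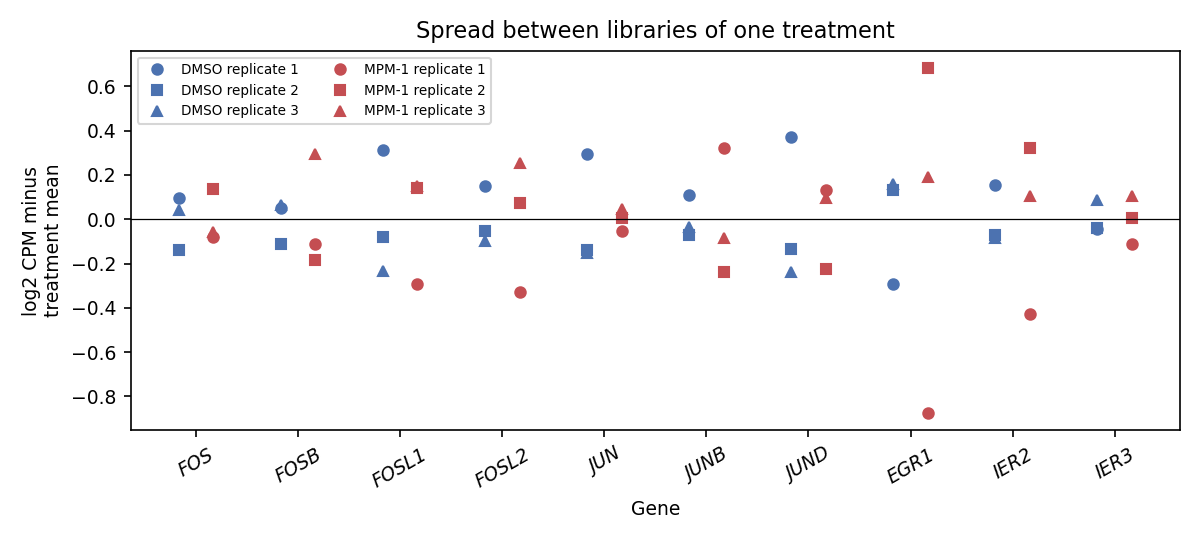
Deviation of each library from the mean of its treatment, as log2 CPM, for each gene, with DMSO in blue, MPM-1 in red and a symbol for each replicate. EGR1 spans -0.88 to 0.68 within MPM-1, and IER3 stays within 0.11 of its treatment means.

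Per transcript length, the genes spanned a wide range of levels, with IER3 at the top and FOSB at the bottom in both treatments. Under DMSO the mean FPKM was 196 for IER3, 154 for JUND, 84.3 for JUNB, 66.0 for IER2, 44.2 for FOSL1, 31.3 for FOS, 30.7 for EGR1, 9.61 for FOSL2, 8.80 for JUN and 1.62 for FOSB. Libraries of neighbours in this order overlapped for IER3 and JUND, for FOS and EGR1, and for FOSL2 and JUN. Under MPM-1 the order was IER3 at 445, JUNB at 268, JUND at 160, FOSL1 at 80.8, IER2 at 73.0, EGR1 at 33.1, FOS at 26.0, JUN at 24.5, FOSL2 at 18.5 and FOSB at 2.45 FPKM. There the overlapping neighbours were FOSL1 with IER2, EGR1 with FOS, and FOS with JUN. JUNB passed JUND, and JUN passed FOSL2.

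The make-up of each family, given as each gene's share of the family's summed FPKM, differed between treatments. JUND supplied 61.9% ± 3.65 (SD, n = 3) of JUN family transcripts under DMSO and 35.5% ± 2.63 under MPM-1. JUNB supplied 34.5% ± 3.67 under DMSO and 59.0% ± 3.30 under MPM-1, and JUN 3.56% ± 0.0472 and 5.52% ± 0.979. The JUN family sum was 247 ± 38.7 FPKM under DMSO and 452 ± 63.6 under MPM-1. JUNB thus stood in the place of JUND as the most abundant JUN transcript in all 3 MPM-1 libraries.

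In the FOS family, FOSL1 was the most abundant in all 6 libraries, with 50.6% ± 4.39 under DMSO and 63.1% ± 1.77 under MPM-1. FOS supplied 36.4% ± 3.74 under DMSO and 20.6% ± 2.43 under MPM-1, FOSL2 11.1% ± 0.467 and 14.4% ± 1.03, and FOSB 1.89% ± 0.285 and 1.94% ± 0.334. The sum was 86.8 ± 11.0 FPKM under DMSO and 128 ± 20.1 under MPM-1. JUN family transcripts exceeded FOS family transcripts by 2.93, 2.81 and 2.78 times in the DMSO libraries and by 4.96, 2.79 and 3.22 times in the MPM-1 libraries. These ratios overlapped, and MPM-1 replicate 1, with the highest JUNB, stood apart.

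**Figure D4:**
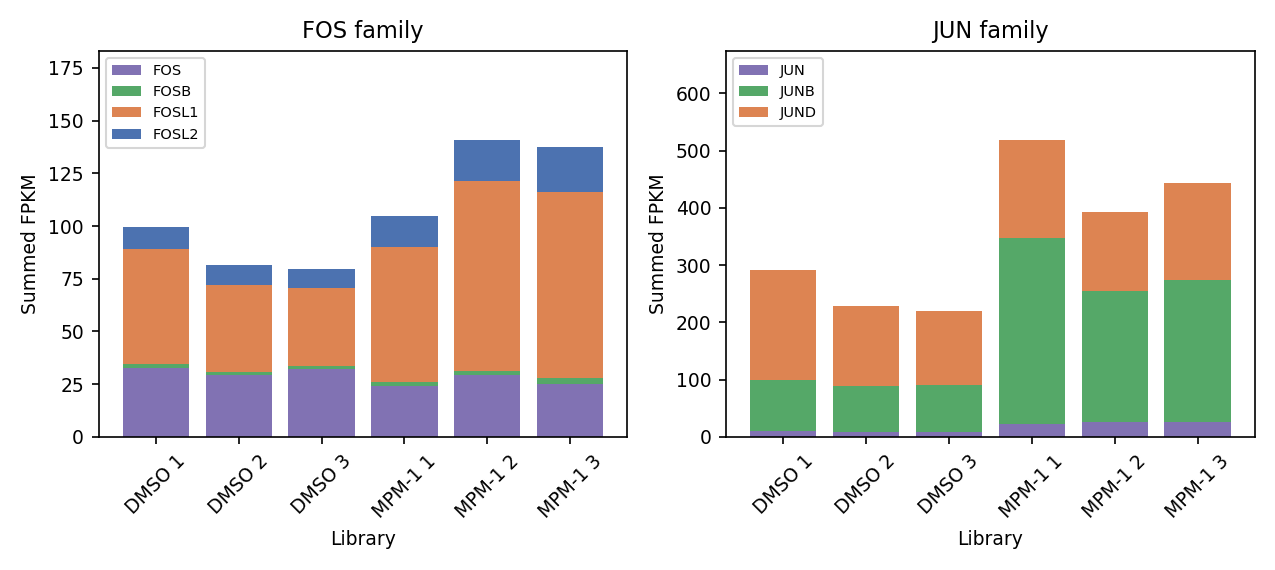
Summed FPKM of the FOS family (left) and of the JUN family (right) in each library, stacked by gene, on linear axes from 0. FOS averages 31.3 FPKM under DMSO and 26.0 under MPM-1, with overlapping libraries, while FOSL1 and FOSL2 grow. JUNB overtakes JUND in the MPM-1 libraries.

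Whether members of one family responded differently was tested on log2 FPKM ratios of 6 pairs of FOS genes and 3 pairs of JUN genes. The test was a two-sided exact permutation test over the 6 libraries, which cannot go below p = 0.1. The ratio of JUNB to JUND was -0.85 ± 0.24 (SD, n = 3) under DMSO and 0.74 ± 0.19 under MPM-1, a difference of 1.58, and that of JUN to JUND differed by 1.41. The ratio of FOS to FOSL1 differed by -1.14, to FOSL2 by -1.19 and to FOSB by -0.83, and that of FOSB to FOSL2 by -0.37. For these 6 of the 9 pairs the treatments did not overlap. Each reached the smallest possible exact permutation p, which was 0.15 after Benjamini-Hochberg adjustment over the 9 pairs. The ratios of FOSL1 to FOSL2, of JUN to JUNB and of FOSB to FOSL1 overlapped, with differences of -0.05 (SE 0.12), -0.17 (SE 0.21) and -0.32 (SE 0.25) and exact permutation p = 0.8, 0.6 and 0.4.

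The partner basic leucine zipper (bZIP) factors, which pair with FOS or JUN proteins, also held DEGs that rose. Of 14 listed, 11 were in the table, with a list median of 0.92. Of these, 5 were higher, beside 5.58% of all genes, and 0 lower (0 likewise by DESeq2), beside 8.75%. An unadjusted p under 0.05 was found for 8 of the 11, beside 61.3% of all genes, and 1 of these 8, MAFA, named after its values were seen, was lower, at a log2 fold change of -0.59. The stress factor ATF3 rose from 7.91, 4.24 and 4.85 CPM to 51.3, 40.3 and 51.3 CPM (log2 fold change 3.08, SE 0.22, edgeR adjusted p = 5.11e-06). MAFF, a small MAF protein without an activation domain, rose by 1.97, and ATF4, the main factor of the integrated stress response, by 1.04, from 415 ± 14 to 853 ± 94.8 CPM. ATF7 and MAFK were the other two, at 1.03 and 1.00. With library size alone 2 of the 11 stayed past the fold threshold, and 3 did without DMSO replicate 3 or without MPM-1 replicate 1.

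Of 39 other immediate early genes, 38 were in the table, with a list median of 0.42. Of these, 16 were DEGs higher and 1 was a DEG lower, beside 5.58% and 8.75% of all genes. At an edgeR adjusted p under 0.05 with no fold threshold, 23 were higher and 4 lower, beside 27.7% and 28.8% of all genes. The 4 lower were MYC, IER5L at -0.84, IER5 at -0.73 and BTG2 at -0.41, named after their values were seen. DUSP1, a phosphatase that turns off MAP kinases, rose from 20.0, 14.7 and 15.3 CPM to 173, 101 and 144 CPM (log2 fold change 3.07). The Kruppel-like factor KLF2 rose by 2.35 and TIPARP, a target of the aryl hydrocarbon receptor, by 2.18. The 1 DEG lower was MYC, from 68.5, 98.9 and 88.4 CPM to 17.3, 36.6 and 28.4 CPM (log2 fold change -1.64, SE 0.24, edgeR adjusted p = 0.000313). MYC encodes a growth-promoting transcription factor.

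Of 22 kinases and factors upstream of the 10 genes, all in the table, 1 was a DEG higher, near the 5.58% of all genes. It was MEF2D, a MADS-box transcription factor, at a log2 fold change of 1.01, just past the threshold. It lost the call with library size alone and without any one of DMSO replicates 2 and 3 and MPM-1 replicates 1 and 3. By edgeR and by DESeq2 0 were DEGs lower, 9 of the 22 had an unadjusted p under 0.05 beside 61.3% of all genes, and the list median was 0.08. Of the 10 modifiers of AP-1 and EGR1 proteins, 0 were DEGs and 6 had an unadjusted p under 0.05, about the 61.3% of all genes, with a list median of 0.03. NAB2, a corepressor of EGR1, ITCH and COPS5 were higher at an edgeR adjusted p under 0.05, and DET1, MEN1, which binds JUND, and USP28 were lower, all 6 being named after their values were seen. DET1, a part of a ubiquitin ligase for JUN, had only 36, 108 and 93 counts under DMSO and 26, 6 and 0 under MPM-1. It was the 1 modifier called lower without MPM-1 replicate 1. By DESeq2 none of the 10 was a DEG.

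Genes known as AP-1 targets had a list median of 1.32 over those in the table, the highest of the 6 lists outside the 10 genes. Of 39 listed, 27 were in the table. Of these, 15 rose, beside 5.58% of all genes, and 0 fell (0 likewise by DESeq2), beside 8.75%. An unadjusted p under 0.05 was found for 23, beside 61.3% of all genes. Listed genes such as MMP3, MMP9 and IL6 were not in the table, where the lowest total was 115 counts. The list was chosen with earlier results known, so the rank of its median is a description only. MMP1, the interstitial collagenase whose promoter was among the first AP-1 sites described, rose from 53, 52 and 70 counts to 2110, 2420 and 2976 counts, or from 1.52 ± 0.29 to 78.9 ± 9.69 CPM (log2 fold change 5.70, SE 0.16, edgeR adjusted p = 4.63e-08). MMP10, another matrix metalloproteinase, had 0, 1 and 6 counts under DMSO and 126, 111 and 112 under MPM-1, so it was called higher but its fold change rests on a control near 0. It reached the lowest total in the table only through its MPM-1 libraries. CXCL8, the neutrophil chemokine, rose from 6.86 ± 1.20 to 152 ± 25.4 CPM (log2 fold change 4.48). These genes also respond to other factors, and the list was not tested against other lists.

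Of 12 genes listed as EGR1 targets, 11 were in the table, with a list median of 0.34. Of these, 2 rose, beside 5.58% of all genes, and 1 fell, near the 8.75% of all genes called lower. GDF15, a stress-induced cytokine, rose from 998 ± 197 to 3934 ± 399 CPM (log2 fold change 1.98), and PDGFA by 1.27. IGF2 fell, its level of 45.3 ± 1.42 CPM under DMSO being 20.4 ± 1.48 CPM under MPM-1 (log2 fold change -1.15). NAB2, EGR2 and TGFB1 each stand in more than one of the lists.

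**Figure D5:**
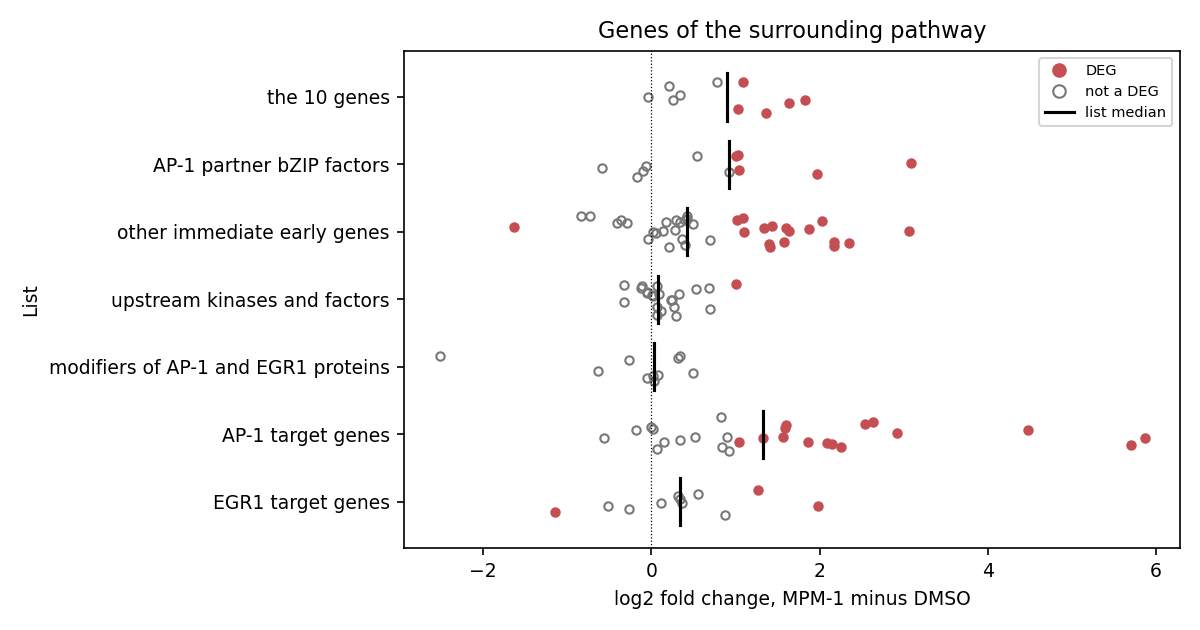
Log2 fold change (MPM-1 minus DMSO) of every gene in the table from each list, with DEGs filled and a bar at the list median. Medians run from 0.03 for the modifiers to 1.32 for the AP-1 targets, and MMP1 and MMP10 lie farthest to the right.

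For each of the 5 genes called higher, the genes whose log2 CPM followed it most closely over the 6 libraries were sought. The search covered 9070 other genes, those with an assigned symbol that averaged 10 CPM or more. Pearson's r is given as a description, since all points share the treatment contrast. FOSL1 was most like RNMT and YIPF3, both at 0.999. For FOSL2 these were PSMF1 and VPS37B at 0.996, and for JUN they were S100A11 and UBE2J1, with 0.999 for the latter. JUNB was followed by ATF4 and PXK, the latter at 0.999, and IER3 by CSF1 and PTK6, both at 0.999.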

How the data were processed

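Total RNA of SW480 cells, collected 24 h after MPM-1 or DMSO was added, was made into libraries with a messenger RNA kit (Hieff NGS Ultima Dual-mode), and a sequencing company did the library work and analysis. The authors deposited 1 table with the raw read count of each gene in each of the 6 libraries, as whole numbers, and the FPKM that the authors scaled by transcript length and library size. It also holds the authors' deposited log2 fold change and FDR (adjusted p-value) of MPM-1 against DMSO, which were not used. The submitters' processing notes name HISAT2 and DESeq2, without versions, and the mouse build mm10, whereas the gene identifiers are human. No coordinate was taken from the table. Gene positions came from GENCODE annotation of GRCh38, and promoters from RefSeq.

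Samples were grouped by their labels. The 10 genes and the lists around them were chosen with earlier results of these data known. In R 4.3.3, counts of all 12982 genes were fitted by edgeR 4.0.16 (TMM scaling, quasi-likelihood test, two-sided, no covariate), and the filter on low counts removed 0 genes. The lowest total over the 6 libraries was 115 counts, so rarer transcripts were not analysed here. Log2 CPM used a prior count of 2, and FPKM ratios a pseudocount of 0.1. Alternatives were DESeq2 1.42.0, its size factors, library size alone, a mean of at least 50 counts, limma 3.58.1 on log2(FPKM + 0.1) or log2(FPKM + 1) with a mean of at least 1 FPKM or no filter, the replicate number as a block, other pseudocounts, an adjusted p under 0.05, and each library left out in turn. The edgeR script was tested on simulated data. Depth was 31733667 to 40269820 counts per library, and counting error was small beside the spread between replicates. All 10 genes are named, and in each list the 3 largest rises and falls among DEGs. For each DEG among the 10 genes, the 2 genes most alike over the 6 libraries are named too.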

Additional observations from a re-analysis of the deposited data

How the results depend on the processing

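JUN, JUNB and IER3 were DEGs under each of the alternatives run, with log2 fold changes of 1.39 to 1.79, 1.64 to 1.96 and 1.18 to 1.43. Of the 10 genes, 3 were DEGs in place of 5 with library size alone and in the limma fits on log2(FPKM + 0.1), on log2(FPKM + 1) and without an FPKM filter, and leaving out 1 library gave 3 to 5. The lost calls were FOSL1 and FOSL2, which fell below the fold threshold while the adjusted p stayed under 0.01. In these 4 fits FOSL1 was at 0.89, 0.87, 0.86 and 0.87 and FOSL2 at 0.94, 0.92, 0.86 and 0.92, and leaving out 1 library gave 0.92 to 1.20 and 0.97 to 1.25. Values for EGR1 in the limma fits were -0.021, -0.016 and -0.021. Leaving out 1 library gave EGR1 -0.10 to 0.59, the latter at an edgeR adjusted p of 0.0133. The limma fits gave FOS adjusted p-values of 0.0419 to 0.0433. Leaving out 1 library gave FOS -0.11 to 0.012, the ratio of FOSL1 to FOSL2 -0.13 to 0.046 and that of JUN to JUNB -0.29 to 0.018. None of the values in these last ranges passed a test. Partner bZIP factors called higher numbered 2 in these 4 fits and 3 to 6 with 1 library left out. Upstream genes called higher numbered 0 in the 4 fits and 0 to 1 with 1 library left out. Modifiers called lower numbered 1 in the limma fit without a filter and 0 to 1 with 1 library left out. Over all genes, limma gave 445 DEGs higher and 1095 lower on log2(FPKM + 0.1) and 351 and 716 on log2(FPKM + 1), against 725 and 1136, and the share that were higher was 28.9%, 32.9% and 27.1% in the limma fits. The cause of these differences was not tested. Otherwise 191 counts stayed within 1.5 times of those reported, though many of these were 0 in both fits and so the same by rule. Likewise 130 fold changes and 79 ratios kept their direction and side of the threshold.

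The replicate numbers carry no stated pairing. Deviations of same-numbered libraries had r = 0.068, 0.23 and 0.054, and 4 of 6 libraries correlated best with their own number, a hint from the data and not from the design. With the replicate block, 5 of the 10 genes were DEGs higher and 0 lower, and over all genes 712 were higher and 1120 lower. With 3 libraries a treatment, an exact test of 1 ratio cannot pass 0.05, and EGR1, IER2 and JUND have intervals too wide to bound small changes.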
